A study of Mus musculus with 12 samples.

Results

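The mitochondrial ribosomal protein genes were described across cultured mouse hematopoietic stem cells (HSCs). Members were the protein-coding genes whose symbol begins with Mrpl or Mrps and a number, one entry per gene ID, which gave 78 of the 40481 genes in the deposited table. By protein, 50 of these gene IDs belong to the large subunit and 27, including a second ID with the symbol Mrps23, to the small subunit. The remaining gene, Mrps36, carries a ribosomal name although its protein is a component of the 2-oxoglutarate dehydrogenase complex. Mitochondrial ribosomes translate the few proteins that the mitochondrial genome (mtDNA) encodes, all of them parts of the respiratory chain and the ATP synthase. Their RNA comes from mtDNA, whereas every ribosomal protein is made from a nuclear gene and imported. HSCs are known for low mitochondrial activity at rest and for a rise in protein synthesis when they divide in culture.

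The 4 groups, with 3 libraries each, crossed genotype (WT or ETV6-RUNX1) with source (bone marrow of 8-week mice or E14.5 fetal liver). ETV6-RUNX1 joins parts of the transcription factors ETV6 and RUNX1, occurs in childhood B-cell leukemia and was carried here as an inducible allele (iE/R). Cells were sorted as HSCs and kept for 3 days in expansion culture with 1 µg/mL doxycycline in every group, WT included. The labels do not say which promoter drives the allele, or whether replicate libraries came from separate animals, so p-values measure the spread between these libraries, which may be technical. The fusion transcript itself was not analysed here, and genotypes rest on the labels.

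Library totals ranged from 32.3 to 64.5 M reads, with the 2 lowest in ETV6-RUNX1 bone marrow, and 3 reads equalled 0.047 to 0.093 CPM (reads of a gene per M reads of its library). HSC and progenitor markers such as Kit, Hlf and Cd34 were present in every library, with summed levels of 9 markers between 1669 and 4238 CPM. Of the other cell types, the 5 lymphoid markers summed to at most 1.89 CPM, with Cd3e at 0 in all 12 libraries. Erythroid and megakaryocyte markers were present in every library. The share of reads in processed pseudogenes, which are retrotransposed gene copies, varied from 1.23% to 2.55% between libraries.

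Of the 78 members, 76 reached at least 1 CPM in at least 3 libraries and were tested, among 14271 genes in all. The other 2 had no reads in any library. These were Mrpl53, whose exons share 695 bases with the same-strand gene Gm42688, and ENSMUSG00000098375, a second ID with the symbol Mrps23. Below, Mrps23 is the gene with reads. A gene was called, that is, it rose or fell, at a limma p under 0.05 after Benjamini-Hochberg adjustment across 14271 genes. Log2 differences are on the log2(CPM + 1) scale. Because RNA was measured in bulk, fewer cells of a type and less RNA per cell cannot be told apart.

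Promoter sequences are shown first because most members moved in the same direction in fetal liver cells. RefSeq windows of 300 bases, 250 before the annotated start and 50 after it (GRCm38.p6), were matched by symbol for 68 members, which gave 74 windows. The letters CCGGAAG, the core bound by ETS factors, the family to which ETV6 belongs, occurred on either strand in 33.8% of member windows and in 8.86% of all 32851 windows. The NRF1 motif, GCGC and TGCGC with any base between them, occurred in 17.6% against 4.60%, and the YY1 motif AANATGGC in 28.4% against 6.05%. The RUNX motif TGTGGT occurred in 10.8% of member windows against 16.8% of all windows. The E-box CACGTG was found in 9.46% against 7.15%, and CCAAT in 39.2% against 37.4%. The windows in all include genes that these cells do not express, both strands were read, and no motif contains another. Below are the 250 bases before the start of 4 members, 5′ to 3′ on the gene's strand, with capitals marking the ETS or NRF1 letters. Mrpl42 and Mrpl12 showed 2 of the 3 largest falls in fetal liver, and Mrpl34 the largest fall among members with a single window and an ETS match before the start. Mrpl3, with the same ETS letters, had the smallest difference among such members.
Mrpl42, chr10:95501950-95502199, minus strand: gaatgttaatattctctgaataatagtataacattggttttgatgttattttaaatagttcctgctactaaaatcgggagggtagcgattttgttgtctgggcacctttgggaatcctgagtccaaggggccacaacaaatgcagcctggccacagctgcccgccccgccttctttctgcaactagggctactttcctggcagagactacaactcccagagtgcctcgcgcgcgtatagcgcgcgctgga
Mrpl12, chr11:120484387-120484636, plus strand: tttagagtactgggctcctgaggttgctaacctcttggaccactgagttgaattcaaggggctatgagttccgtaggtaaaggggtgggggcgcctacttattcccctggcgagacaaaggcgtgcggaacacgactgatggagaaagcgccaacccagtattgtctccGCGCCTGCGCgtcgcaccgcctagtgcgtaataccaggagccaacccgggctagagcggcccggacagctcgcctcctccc
Mrpl34, chr8:71464676-71464925, plus strand: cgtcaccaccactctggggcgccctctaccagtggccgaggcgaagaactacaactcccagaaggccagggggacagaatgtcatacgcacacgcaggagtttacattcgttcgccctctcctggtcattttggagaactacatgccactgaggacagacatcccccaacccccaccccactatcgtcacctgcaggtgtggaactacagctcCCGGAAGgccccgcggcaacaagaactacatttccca
Mrpl3, chr9:105053018-105053267, plus strand: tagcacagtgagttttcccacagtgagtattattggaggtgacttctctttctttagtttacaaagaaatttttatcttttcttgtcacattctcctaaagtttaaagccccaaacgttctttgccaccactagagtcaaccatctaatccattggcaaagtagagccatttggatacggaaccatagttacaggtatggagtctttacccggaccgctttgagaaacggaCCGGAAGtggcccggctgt
The 250 bases of Mrpl42 held none of the ETS, NRF1, YY1, E-box or RUNX letters on either strand and did hold CCAAT. Annotated exons of the gene itself covered 24 bases of the Mrpl12 window and 29 bases of the Mrpl3 window, and no annotated exon lay in the Mrpl42 or Mrpl34 window. Of the tested members with the ETS letters in their full window, 20 of 24 fell in ETV6-RUNX1 fetal liver cells, with a median log2 difference of -0.58. Of those without them, 34 of 43 fell, with a median of -0.66. A match is a description of the letters and not of binding.

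Mitochondrial ribosomal protein mRNAs made up a smaller part of the transcriptome in ETV6-RUNX1 than in WT fetal liver cells. Their summed level was 7283, 8060 and 8723 CPM in the WT libraries and 4860, 5038 and 5114 CPM in the ETV6-RUNX1 libraries, a ratio of 0.62 with no overlap between the groups. Of the 76 tested members, 61 fell and 0 rose, where 18.3% of all genes tested fell and 24.8% rose. EdgeR and DESeq2, run on the reads recovered from CPM, each called 63 members, all lower. Of all genes, edgeR called 21.2% lower and 22.1% higher, and DESeq2 21.5% lower and 24.3% higher. By limma the median member differed by -0.64 and the median gene by 0.08. The fall was found in both subunits: the large subunit had 41 of 49 members called lower, with a median of -0.65, and the small subunit 19 of 26, with a median of -0.58. It was also found among proteins with a bacterial counterpart (34 of 45) and among those specific to mitochondria (26 of 30).

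**Figure D1:**
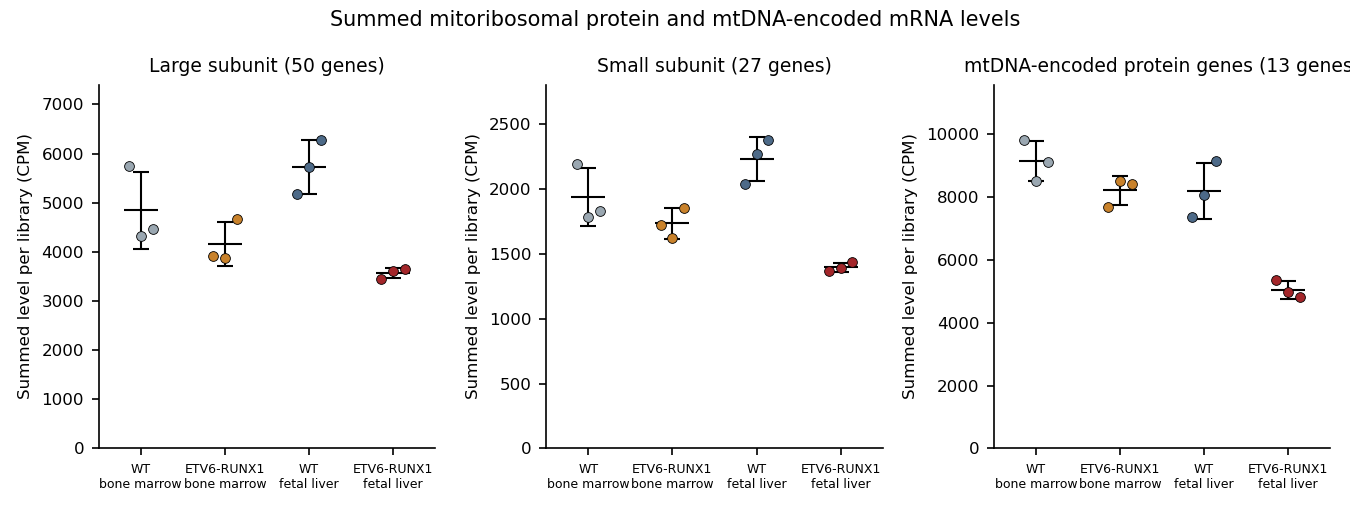
Summed level per library (CPM, linear axis from 0) of the large-subunit members, the small-subunit members and the mtDNA-encoded protein genes in the 4 groups. Points are libraries, the horizontal line is the mean and the bar the SD (n = 3). ETV6-RUNX1 fetal liver libraries lie lowest in each panel, at 3454 to 3645 CPM for the large and 1369 to 1438 CPM for the small subunit.

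The largest fall belonged to Mrpl36, a small large-subunit protein with a bacterial counterpart. It was measured at 193, 195 and 225 CPM in WT and at 89.1, 86.1 and 87.8 CPM in ETV6-RUNX1 fetal liver cells. The groups lay far apart, and the log2 difference was -1.21 ± 0.15 (SE, adjusted p = 2.6e-05, limma). Exons of Mrpl36 share 30 bases with Ndufs6 on the other strand. Mrpl42, a large-subunit protein specific to mitochondria, was at 225, 279 and 313 CPM in WT and at 113, 118 and 120.4 CPM in ETV6-RUNX1 cells, with a log2 difference of -1.20 ± 0.16. In the small subunit Mrps28 went from 94.2, 101 and 115 CPM to 44.1, 48.4 and 52.7 CPM, a log2 difference of -1.08 ± 0.17. Mrps27, a protein of pentatricopeptide repeats, a fold known for binding RNA, was at 94.7, 95.8 and 87.9 CPM in WT and 49.6, 46.7 and 40.2 CPM in ETV6-RUNX1 cells. Its log2 difference was -1.02 ± 0.13 (limma adjusted p = 2.58e-05). In each of these genes every ETV6-RUNX1 library lay below every WT library.

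Members with a known place in the translation cycle were examined one by one. Mrpl10, Mrpl11 and Mrpl12 form the stalk and its base, where elongation factors dock. Mrpl12 was at 90.4, 105 and 111 CPM in WT and 47.1, 41.6 and 45.1 CPM in ETV6-RUNX1 fetal liver cells, a log2 difference of -1.17 ± 0.16 (limma adjusted p = 5.76e-05). Mrpl11, at the base of the stalk, was at 104, 109.6 and 128 CPM in WT and 56.9, 68.3 and 62.1 CPM in ETV6-RUNX1 cells, and fell by 0.85 on the log2 scale. Mrpl10, which anchors Mrpl12, was at 56.3, 64.3 and 61.7 CPM against 51.3, 44.4 and 51.8 CPM. Its groups did not overlap, but its difference of -0.30 ± 0.12 missed the threshold (limma adjusted p = 0.0595). The differences between these 3 members were not tested. Mrps12, which lies at the decoding site, was at 74.2, 82.4 and 100.04 CPM in WT and 47.3, 39.5 and 58.5 CPM in ETV6-RUNX1 cells, and fell by 0.82.

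Mrpl58 is a peptidyl-tRNA hydrolase built into the large subunit that frees peptides from stalled ribosomes. It was at 57.4, 68.5 and 73.2 CPM in WT and 45.8, 43.6 and 41.2 CPM in ETV6-RUNX1 fetal liver cells, and fell by 0.59 on the log2 scale. Mrpl44, a large-subunit protein with an RNase III-like fold, fell by 0.53. Mrps30, a large-subunit protein despite its name, was low, at 6.70, 7.38 and 7.27 CPM in WT and 4.50, 4.90 and 6.60 CPM in ETV6-RUNX1 cells. The groups of Mrps30 did not overlap and its difference of -0.37 ± 0.21 was not called (limma adjusted p = 0.168). Mrps36, the component of the 2-oxoglutarate dehydrogenase complex, went from 57.0, 54.6 and 66.3 CPM to 37.1, 40.6 and 31.8 CPM and fell by 0.69, so the fall was not limited to genes whose proteins sit in the ribosome.

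The 3 Mrps18 genes are paralogs whose proteins occupy different places in the ribosome. Mrps18b, a small-subunit protein specific to mitochondria, was at 35.4, 34.4 and 38.0 CPM in WT and 18.9, 18.8 and 17.3 CPM in ETV6-RUNX1 fetal liver cells, a log2 difference of -0.93 ± 0.15. Mrps18a, which sits in the large subunit, was at 150.5, 164 and 178 CPM against 114, 123 and 126 CPM, a difference of -0.44 ± 0.16 (limma adjusted p = 0.0374). Mrps18c, the paralog nearest to the bacterial protein, was at 104, 144 and 157 CPM against 119, 132 and 125 CPM. Its groups overlapped, the difference was -0.09 ± 0.19, and its sign depended on WT replicate 3, without which it was 0.030. The differences between the paralogs were not tested. Mrps18b shares 638 exon bases with the antisense gene Gm16279 and has a processed pseudogene copy, and Mrps18c shares 250 bases with Gm43511 on its own strand and has a copy at 5.69 CPM.

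**Figure D2:**
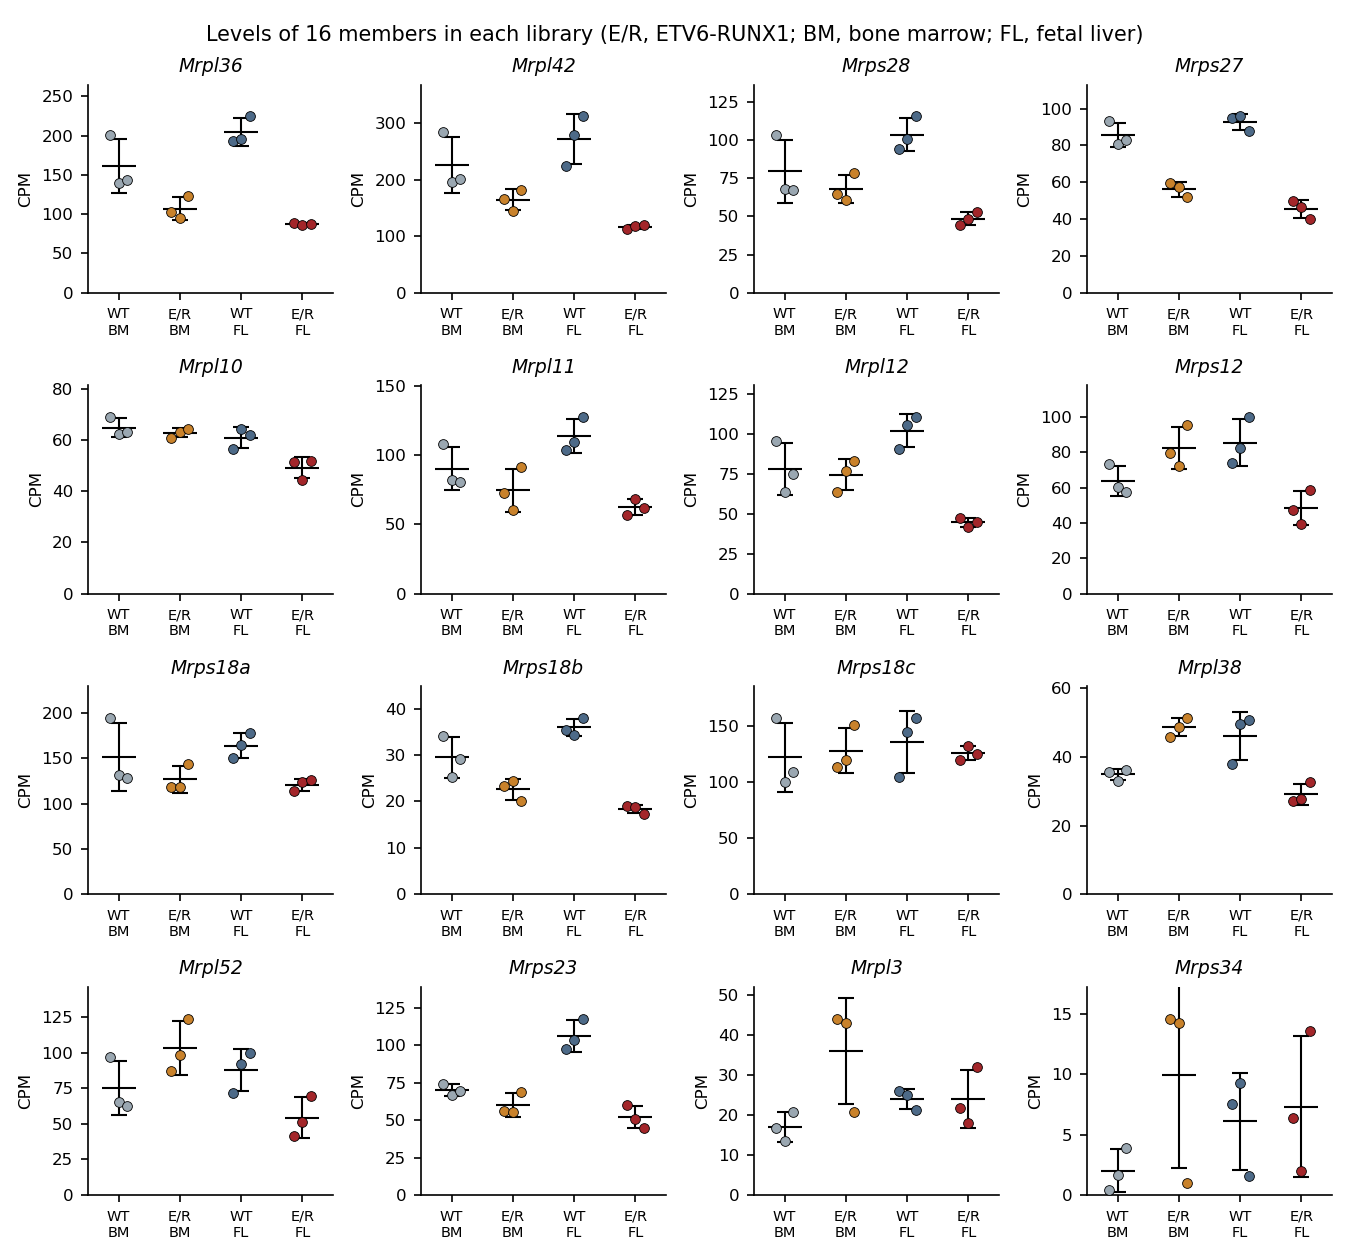
Levels (CPM, linear axes from 0, a scale for each panel) of 16 members in every library of the 4 groups. Points are libraries, the horizontal line is the mean and the bar the SD (n = 3). Mrpl36, Mrpl42, Mrps28 and Mrps27 separate ETV6-RUNX1 from WT in fetal liver, Mrps18c does not, and Mrps34 varies as much within groups as between them.

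Of the 15 tested members without a call in fetal liver, 14 had negative and 1 a positive difference, the latter being Mrps34 (0.18 ± 0.77), named after its value was seen. In 66 members every ETV6-RUNX1 library was below every WT library, where this held for 23.3% of all genes, and in 0 members it was the reverse. Among these 66, Mrpl10, Mrpl24, Mrpl30, Mrps30 and Mrps6 were not called (5 genes listed after their values were seen). Of 45 tested members whose exons overlap no other annotated gene, 40 fell, with a median of -0.65, and of 31 whose exons do, 21 fell, with a median of -0.58. Of the members named above, Mrpl12 shares 200 exon bases with Gm16755, Mrpl44 126 with Wdfy1 and Mrps30 623 with B430218F22Rik, and Mrpl10 and Mrpl58 also overlap another gene, so that their levels are uncertain to that extent. A processed pseudogene copy, taken as at least 90% identity over at least 80% of the pseudogene, was found for 25 members, of which 20 fell. For 19 of these 25 a copy has a CPM value in the deposited table, and the copies reached over 5% of the member's own level for 4 of the 19; for the other 6 the level of the copies was not analysed here. For Mrpl23, for example, the copy Mrpl23-ps1 was at 19.3 CPM and the gene at 73.7 CPM. Among the named members Mrpl42, Mrpl12, Mrps36, Mrpl41, Mrps5 and Mrps26 also have copies, and reads could be divided between a gene and its copy.

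The libraries differed in other measures that moved with this result. Processed pseudogenes took 1.65%, 2.03% and 2.37% of reads in WT and 1.39%, 1.23% and 1.91% in ETV6-RUNX1 fetal liver libraries, in the same order within WT as the summed member level. With this share as a covariate 40 members were called, all lower, with a median of -0.48. Of all genes, 16.02% were then called lower and 18.68% higher, with a median of 0.02. The summed megakaryocyte markers were 2897 to 4360.5 CPM in WT and 6725 to 7181 CPM in ETV6-RUNX1 cells, with 3 of 6 called higher and 1 lower. The erythroid markers summed to 731 to 1013 against 1448 to 2223 CPM, with 6 of 7 tested called higher. The granulocyte and monocyte markers summed to 223 to 301 against 66.4 to 76.7 CPM, but of the 4 tested 2 were called lower and 2 higher. Mast cell and basophil markers summed to 7.31 to 11.7 against 3.09 to 5.22 CPM, with both tested genes lower, and hepatocyte and stroma markers to 78.9 to 97.3 against 139 to 172 CPM, with 1 of 3 tested lower and 1 higher. The HSC and progenitor markers, of which 8 of 9 rose, were at 1669 to 2042 against 4112 to 4238 CPM. The part of these cell types in the fall of the members was not tested. Under quantile normalization the median of all genes moved from 0.08 to -0.10, the shares of all genes called became 26.2% lower and 19.04% higher, and 64 members were called lower.

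**Figure D3:**
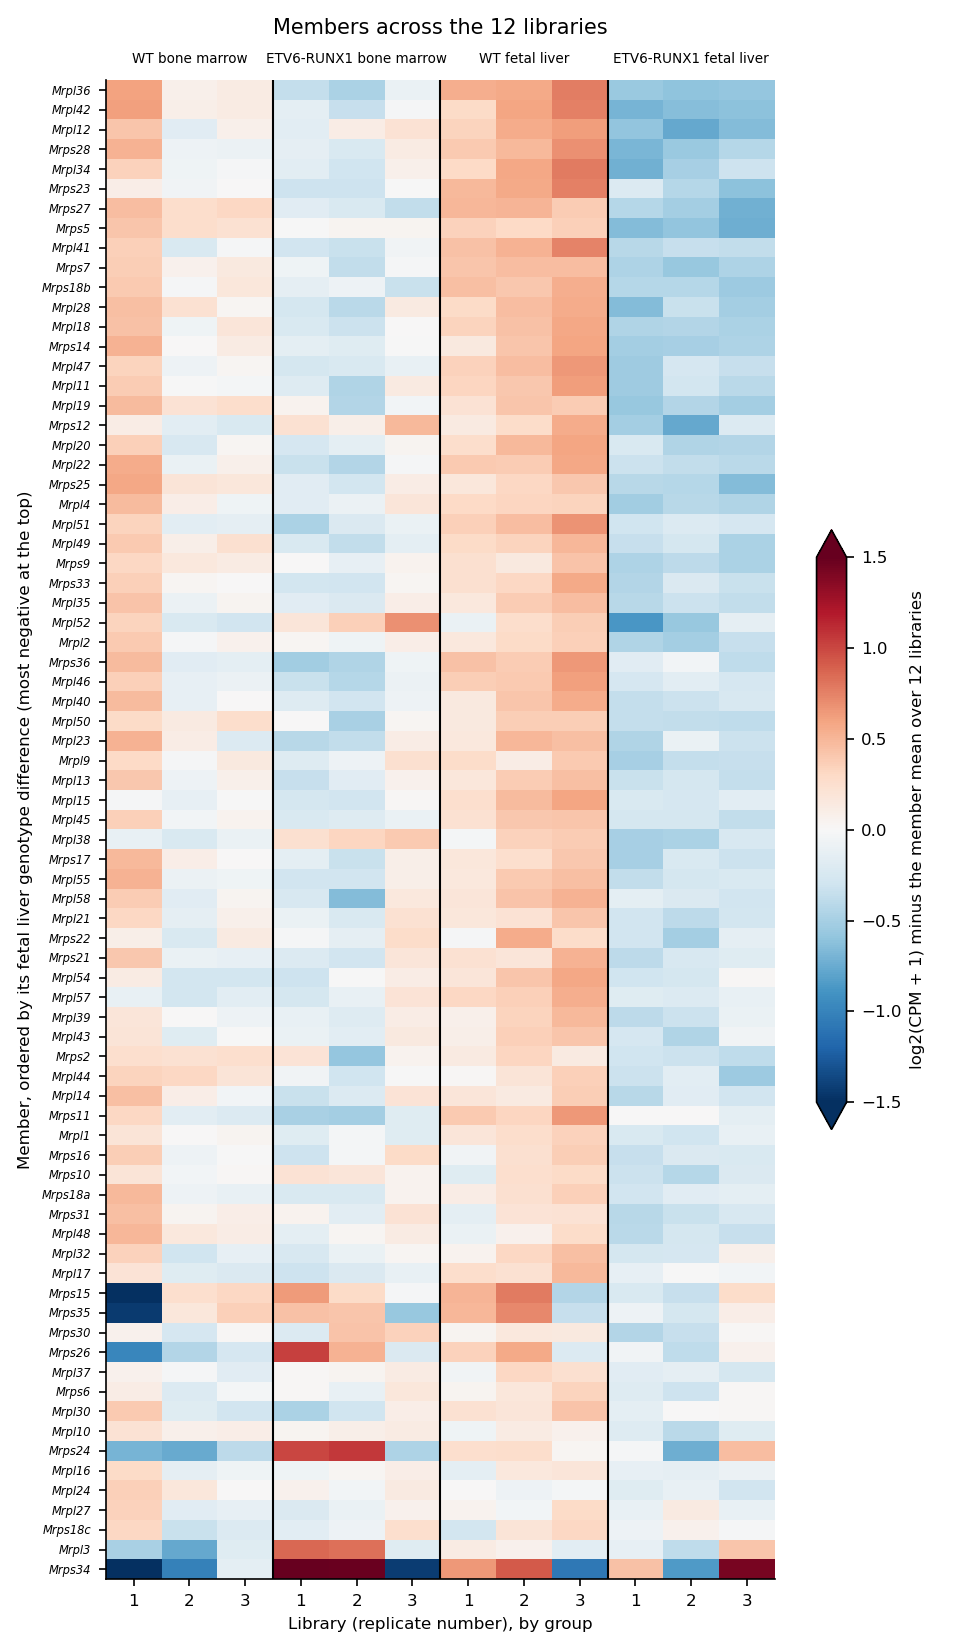
Each of the 76 tested members (vertical axis) in each of the 12 libraries (horizontal axis), as log2(CPM + 1) minus the member's mean over the 12 libraries (colour scale, red above and blue below, capped at 1.5). Members are ordered by the fetal liver genotype difference, and the ETV6-RUNX1 fetal liver columns are blue for most members. A few members near the bottom, among them Mrps34, Mrps24 and Mrpl3, follow another pattern within groups.

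On CPM without further scaling or a covariate, the genotype difference in bone marrow cells was smaller than in fetal liver and its calls went both ways. The summed level was 7998, 6149 and 6342 CPM in the WT and 5671, 5529 and 6568 CPM in the ETV6-RUNX1 libraries, a ratio of 0.87 with overlapping groups. Of 76 members, 4 fell and 4 rose, against 4.93% of all genes lower and 14.4% higher. The median member differed by -0.21 and the median gene by 0.13, and 59 of 76 member differences were negative. All ETV6-RUNX1 libraries lay below all WT libraries for 17 members (10.9% of all genes) and above them for 3 members (23.6% of all genes).

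The 4 members that fell in bone marrow, Mrps27, Mrpl36, Mrpl49 and Mrpl19, were also among the 61 that fell in fetal liver. Mrps27 was at 93.1, 80.9 and 83.2 CPM in WT and 59.4, 57.2 and 51.8 CPM in ETV6-RUNX1 bone marrow cells, a log2 difference of -0.60 ± 0.13 (limma adjusted p = 0.00579). Mrpl36 was at 201, 139 and 144 CPM in WT and 103, 94.9 and 123 CPM in ETV6-RUNX1 cells, and fell by 0.58. Mrpl49 and Mrpl19, both large-subunit proteins, fell by 0.48 and 0.46. All 4 share exon bases with a gene on the other strand (Mrps27 506 with 6430562O15Rik, Mrpl36 30 with Ndufs6, Mrpl49 91 with Syvn1, Mrpl19 1962 with Gcfc2). Whether reads were counted by strand is not given in the sources used here, so their values are uncertain to that extent.

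The 4 members that rose in bone marrow were Mrps24, Mrps26, Mrpl3 and Mrpl38. Mrps24, the counterpart of bacterial S3 at the mRNA entry, was at 5.90, 5.65 and 7.50 CPM in WT and 21.4, 22.4 and 7.15 CPM in ETV6-RUNX1 cells. ETV6-RUNX1 replicate 3 thus lay within the WT range, although the difference of 1.15 ± 0.36 was called (limma adjusted p = 0.0382). Mrpl3, which lies near the peptidyl transferase centre, was at 16.7, 13.5 and 20.8 CPM against 44.1, 43.0 and 20.8 CPM, and Mrps26 at 6.72, 10.3 and 11.8 CPM against 30.2, 21.0 and 12.1 CPM. In both, the groups did not overlap, but ETV6-RUNX1 replicate 3 lay only just above the highest WT library. Mrpl38, a large-subunit protein specific to mitochondria, was at 35.7, 33.0 and 36.1 CPM in WT and 45.9, 48.7 and 51.4 CPM in ETV6-RUNX1 bone marrow cells, with a difference of 0.47 ± 0.15 and no overlap. Mrpl38 was the member called in opposite directions, since it fell by 0.64 in fetal liver. Mrps24 shares 226 bases with Urgcp on its own strand, Mrpl3 248 with Gm38077 and Mrps26 8 with an antisense gene.

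The bone marrow count depended on the scaling and on single libraries. With median-of-ratios scaling, under which the median of all genes moved from 0.13 to 0.01 and the calls over all genes were 9.2% lower and 10.4% higher, 14 members fell and 3 rose. Quantile normalization gave 8 lower and 0 higher, with 9.28% of all genes lower and 8.75% higher. EdgeR gave 15 lower and 3 higher, with 9.49% of all genes lower and 9.70% higher. DESeq2 gave 17 lower and 3 higher, with 11.1% of all genes lower and 12.0% higher. The 8 calls became 2 without WT replicate 1, 5 without WT replicate 2, 4 without WT replicate 3, 2 without ETV6-RUNX1 replicate 1, 1 without replicate 2 and 13 without replicate 3. Pseudogene shares were 2.23%, 1.60% and 1.69% in the WT and 2.34%, 2.13% and 2.55% in the ETV6-RUNX1 libraries. With this share as a covariate 36 members fell and 2 rose, where 7.12% of all genes fell and 20.2% rose. The median member then differed by -0.41 and the median gene by 0.19. In fetal liver the same covariate gave medians of -0.48 and 0.02. The summed megakaryocyte markers were 1158 to 1609 CPM in WT and 321 to 1894 CPM in ETV6-RUNX1 bone marrow cells, with 1 of 6 called lower. HSC and progenitor markers were at 1845 to 2763 against 2963 to 3266 CPM, with 5 of 9 called higher. The granulocyte and monocyte markers were at 155 to 261 against 121 to 146 CPM, with 1 of 4 tested called lower and 1 higher. Mast cell and basophil markers were at 23.7 to 41.0 against 7.73 to 15.5 CPM, with 1 of 2 tested called lower. The hepatocyte and stroma markers were at 86.1 to 103 against 106 to 114 CPM, but of the 3 tested 1 was called lower and 0 higher. The erythroid markers, at 236 to 519 against 421 to 632 CPM, overlapped, and of the 7 tested 1 was called lower and 0 higher. The part of these cell types in the result was not tested.

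The genotype differences of the 2 sources were compared directly by an interaction term, the fetal liver difference minus the bone marrow difference. It was negative for 76 of 76 members (74 under median-of-ratios scaling, edgeR or DESeq2, and 51 with the pseudogene share as a covariate), with a median of -0.47 against -0.05 for all genes, and called for 9 members, all negative, where 3.62% of all genes were called lower and 5.56% higher. Mrps12 had the most negative called interaction, -1.18 ± 0.24 (limma adjusted p = 0.00865). In bone marrow it was at 73.1, 60.6 and 57.5 CPM in WT and 79.4, 72.4 and 95.7 CPM in ETV6-RUNX1 cells, overlapping and on average higher, whereas in fetal liver the fusion group lay wholly below WT. Mrpl52, a large-subunit protein specific to mitochondria, was at 97.3, 65.3 and 62.9 CPM in WT and 87.2, 98.5 and 124 CPM in ETV6-RUNX1 bone marrow cells. In fetal liver it was at 71.4, 92.2 and 99.8 CPM in WT and 41.3, 51.6 and 69.7 CPM in ETV6-RUNX1 cells, and the interaction was -1.17 ± 0.31. Mrpl12 had bone marrow levels of 95.6, 63.5 and 75.1 CPM in WT and 63.8, 76.9 and 83.1 CPM in ETV6-RUNX1 cells, a difference of -0.05 there and an interaction of -1.12 ± 0.23. Mrpl38 had an interaction of -1.11 ± 0.21.

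Smaller interactions were called for Mrps28 (-0.88), Mrps23 (-0.79) and Mrpl57 (-0.69). The remaining called members were Mrpl34 (-0.85) and Mrps5 (-0.71), which the naming rule had not taken and which were added after their values were seen. All 9 had also fallen in fetal liver. Mrpl36 and Mrps27, which fell in both sources, had interactions of -0.63 and -0.41 that were not called. With the pseudogene share as a covariate, the median member interaction was -0.10 and that of the median gene -0.15. Limma then called 0 members, with 9 at an unadjusted p under 0.05. Of all genes, 1.34% were called lower and 2.47% higher. The 9 calls became 25 without WT bone marrow replicate 1, 4 without WT bone marrow replicate 2 or 3, WT fetal liver replicate 2 or ETV6-RUNX1 fetal liver replicate 2, and 5 without WT fetal liver replicate 3 or ETV6-RUNX1 fetal liver replicate 1. Median-of-ratios scaling gave 5 calls, with 2.5% of all genes lower and 7.0% higher.

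**Figure D4:**
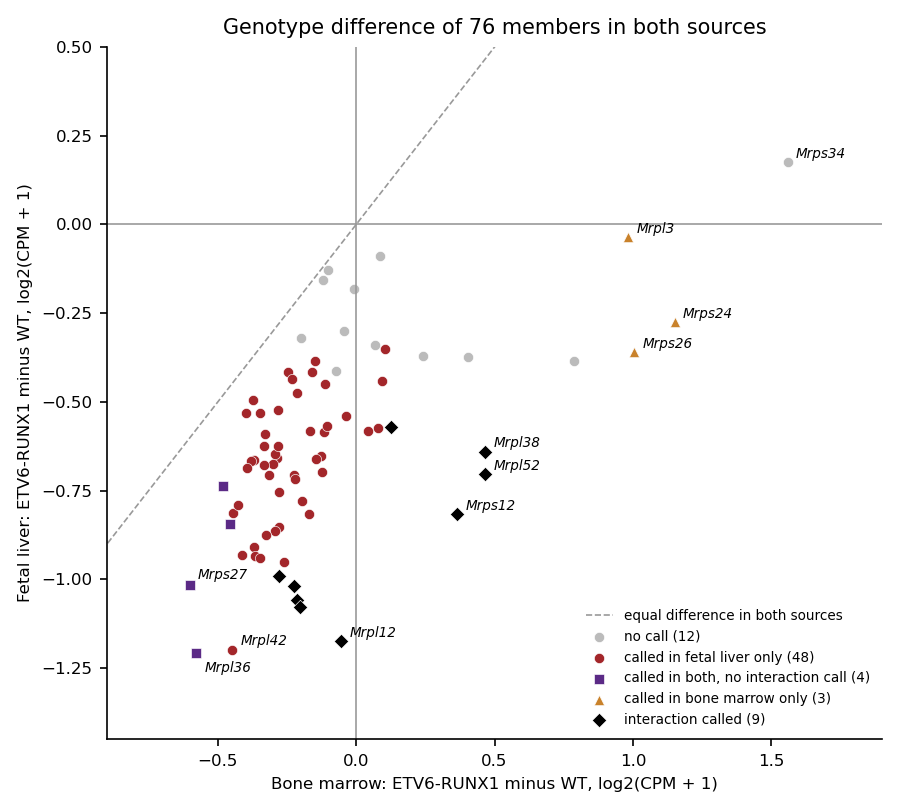
Genotype difference (ETV6-RUNX1 minus WT, log2(CPM + 1)) of the 76 tested members in bone marrow (horizontal axis) and fetal liver (vertical axis), which share no libraries. Each point is a member, its colour and shape give its calls, and the dashed line marks equal differences. All 76 points lie below the line (74 under median-of-ratios scaling), the 9 members with a called interaction as black diamonds.

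Between WT cells of the 2 sources, members were mostly higher in fetal liver, by little. The summed level was 1.17 times that of bone marrow, with overlapping groups. The median member differed by 0.25 and the median gene by -0.07, and 69 of 76 members had a positive difference. Of the members, 5 rose and 0 fell, against 3.38% of all genes higher and 7.77% lower. Mrps23, a small-subunit protein specific to mitochondria, was at 74.1, 66.7 and 69.4 CPM in bone marrow and 97.1, 103 and 118 CPM in fetal liver, a log2 difference of 0.59 ± 0.14 (limma adjusted p = 0.0156). Mrpl57, Mrpl54 and Mrpl41, all large-subunit proteins specific to mitochondria, rose by 0.58, 0.54 and 0.54. The fifth was Mrpl15, which rose by 0.49 and was named after its value was seen. Fetal liver libraries lay wholly above bone marrow libraries for 17 members (10.6% of all genes). Between the same WT groups the summed megakaryocyte markers were 2.75 times as high in fetal liver, without overlap, with 3 of 6 called higher. The erythroid markers were 2.64 times as high, without overlap, with 3 of 7 tested called higher. Mast cell and basophil markers were 0.33 times as high, with 1 of 2 tested called lower. The other sums overlapped. They were 0.83 times for HSC and progenitor markers, with 2 of 9 called lower, and 0.89 times for hepatocyte and stroma markers, with 0 called. Granulocyte and monocyte markers were 1.26 times as high, with 1 of 4 tested called higher. The part of these cell types in the member difference was not tested.

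This source difference rested on few libraries. Limma called 0 members without WT bone marrow replicate 2 (10 at an unadjusted p under 0.05) or WT fetal liver replicate 3 (9 at an unadjusted p under 0.05), and 20 without WT bone marrow replicate 1. It called 2 when WT fetal liver replicate 2 was dropped, and 3 when WT bone marrow replicate 3 or ETV6-RUNX1 fetal liver replicate 1 or 2 was dropped. Of all genes, 14.53% were called lower and 4.96% higher without WT bone marrow replicate 1, so calls rose over all genes too. The share of all genes called higher was 1.96% without WT bone marrow replicate 2 and 1.93% without WT fetal liver replicate 3. EdgeR called 6 and DESeq2 10 members on all libraries, all higher. Of all genes, edgeR called 6.85% lower and 4.37% higher, and DESeq2 8.96% lower and 5.95% higher. Median-of-ratios scaling gave 6 members higher, with 6.6% of all genes lower and 4.6% higher.

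Between ETV6-RUNX1 cells of the 2 sources members were mostly lower in fetal liver. The summed level in fetal liver was 0.84 times that in bone marrow, with no overlap (4860.0 to 5114 against 5529 to 6568 CPM). Of the 76 members, 11 fell and 0 rose, where 18.2% of all genes fell and 10.4% rose, so the share of members called lower was below that of all genes. The median member differed by -0.23 and the median gene by -0.16. Mrpl52 fell by 0.93, Mrps12 by 0.77, Mrpl38 by 0.73 and Mrpl12 by 0.72, and in each the fetal liver libraries lay wholly below the bone marrow libraries. The summed megakaryocyte markers were 7.74 times as high in ETV6-RUNX1 fetal liver as in bone marrow, with 6 of 6 called higher, the erythroid markers 3.36 times, with 6 of 7 tested called higher and 1 lower, and the HSC and progenitor markers 1.33 times. The granulocyte and monocyte markers were 0.51 times as high in sum, but of the 4 tested 1 was called lower and 2 higher. The mast cell and basophil markers were 0.38 times as high, with 2 of 2 tested called lower. The hepatocyte and stroma markers were 1.43 times as high, with 1 of 3 tested called lower and 1 higher. None of these sums overlapped, and the part of these cell types in the member difference was not tested. Fetal liver libraries lay wholly below for 31 members in all (27.8% of all genes). Dropping ETV6-RUNX1 bone marrow replicate 1 left 7 calls, and dropping ETV6-RUNX1 fetal liver replicate 1 or 2 left 5 or 6. With the pseudogene share as a covariate 1 member fell and 2 rose, where 15.6% of all genes fell and 6.88% rose. The median member difference was then 0.06 against -0.22 for the median gene, and 31 of 76 member differences were negative. With median-of-ratios scaling, which moved the median of all genes from -0.16 to -0.01 and the calls over all genes to 10.4% lower and 14.2% higher, 5 members fell and 52 of 76 differences were negative.

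Levels of different members were compared per kilobase of exon. In WT fetal liver the mean level ran from 1.07 CPM per kb for Mrps30 to 227 CPM per kb for Mrpl18, with a median of 39.1 CPM per kb over the members with reads. Mrpl34, at 223 CPM per kb, and Mrpl36, at 176 CPM per kb, were also near the top, and in ETV6-RUNX1 fetal liver they stood at 106 and 75.5 CPM per kb. Exons shared with other genes and unused annotated exons enter these values.

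A set of 6 members, picked out after their values were seen, had the highest spread within groups, an SD over 0.35. The SD of log2(CPM + 1) within groups was 1.24 for Mrps34, 0.77 for Mrps15, 0.64 for Mrps35, 0.54 for Mrps24, 0.43 for Mrps26 and 0.40 for Mrpl3, against a median of 0.18 over all 76 and 0.31 for Mrpl52, the next below. Mrps34 was at 0.419, 1.69 and 3.91 CPM in WT bone marrow, 14.6, 14.2 and 1.02 CPM in ETV6-RUNX1 bone marrow, 7.50, 9.24 and 1.58 CPM in WT fetal liver and 6.37, 2.01 and 13.6 CPM in ETV6-RUNX1 fetal liver. Mrps15 was at 14.2, 71.9 and 74.7 CPM in WT bone marrow and 86.3, 104 and 44.4 CPM in WT fetal liver. In 3 of the 4 groups most of these 6 were lowest where the median member was highest: in WT bone marrow replicate 1 the median member was 0.25 above its group mean and Mrps15 1.53 below it, and in ETV6-RUNX1 bone marrow replicate 3 the values were 0.17 above and, for Mrps34, 1.95 below. Mrpl3 and Mrps24 departed from this in WT bone marrow, where replicate 2 was lowest. In ETV6-RUNX1 fetal liver all 6 were lowest in replicate 2, where the median member was 0.01 above its group mean. Mrps34 shares 763 exon bases with Nme3 on its own strand and 1309 with Mapk8ip3 on the other. None of the 6 was called in fetal liver, and 3 of them (Mrps24, Mrps26 and Mrpl3) make up 3 of the 4 rises in bone marrow.

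Mitoribosomal proteins with other symbols were mostly lower in fetal liver as well. Of the 5, Dap3, Ptcd3, Aurkaip1 and Chchd1 fell in ETV6-RUNX1 fetal liver cells, and the median difference was -0.60. Dap3, a GTP-binding protein of the small subunit, was at 83.1, 102 and 94.1 CPM in WT and 58.4, 61.6 and 54.4 CPM in ETV6-RUNX1 cells, and fell by 0.67. Ptcd3, a pentatricopeptide repeat protein at the mRNA entry, fell by 0.72 in fetal liver and by 0.52 in bone marrow. Gadd45gip1, a large-subunit protein, differed by -0.19 ± 0.38 in fetal liver (limma adjusted p = 0.716) and rose by 1.16 in bone marrow.

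Other genes of mitochondrial translation are given beside the 18.3% of all genes that fell in fetal liver. Of 14 translation factors 6 fell (42.9%) and 0 rose, with a median of -0.32. The largest fall was in Tufm, the elongation factor that brings aminoacyl-tRNA to the ribosome, at 149, 128 and 134 CPM in WT and 60.5, 66.2 and 47.9 CPM in ETV6-RUNX1 cells, a difference of -1.23 ± 0.14. Its exchange factor Tsfm fell by 0.99 and the recycling factor Mrrf by 0.74. Of 21 genes of aminoacyl-tRNA synthesis 11 fell (52.4%) and 0 rose, with a median of -0.49, among them the synthetase Tars2 (-0.70) and the amidotransferase subunit Qrsl1 (-0.73). Ribosome assembly and rRNA modification had 7 of 27 genes lower (25.9%, near the share of all genes) and 0 higher, with a median of -0.25, among them the RNA-binding protein Fastkd2 (-0.80), the GTPase Mtg1 (-0.78) and the pseudouridine synthase Rpusd4 (-0.55). In bone marrow 1 of these 27 fell and 4 rose (14.8%, against 14.4% of all genes). Mitochondrial transcription and RNA processing had 5 of 14 tested genes lower in fetal liver (35.7%), with a median of -0.38, including Tfb2m (-0.88), Tfam (-0.73) and Trmt10c (-0.69). Of 8 tested regulators, such as Nrf1 and Gabpa, only Ppargc1b was called in fetal liver (-0.57), which is 12.5% of the list, and the median was 0.05.

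The mRNAs that these ribosomes translate were lower as well in fetal liver. Of 13 mtDNA-encoded protein genes, 9 fell (69.2%, against 18.3% of all genes) and 0 rose in ETV6-RUNX1 fetal liver cells, with a median of -0.64. mt-Nd1, a complex I subunit, was at 2128, 2334 and 2679 CPM in WT and 1216, 984 and 923 CPM in ETV6-RUNX1 cells, a difference of -1.20 ± 0.15. mt-Cytb of complex III fell by 1.07 and mt-Nd2 of complex I by 0.89. In bone marrow limma called 0 of the 13, with 2 at an unadjusted p under 0.05 (mt-Nd1 and mt-Cytb, both negative) and a median of 0.05. The interaction was negative for 13 of 13 and called for 4 (30.8%, against 3.62% of all genes). Between ETV6-RUNX1 cells of the 2 sources, 11 of the 13 were lower in fetal liver (84.6%, against 18.2% of all genes), with a median of -0.84, where the median member differed by -0.23.

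**Figure D5:**
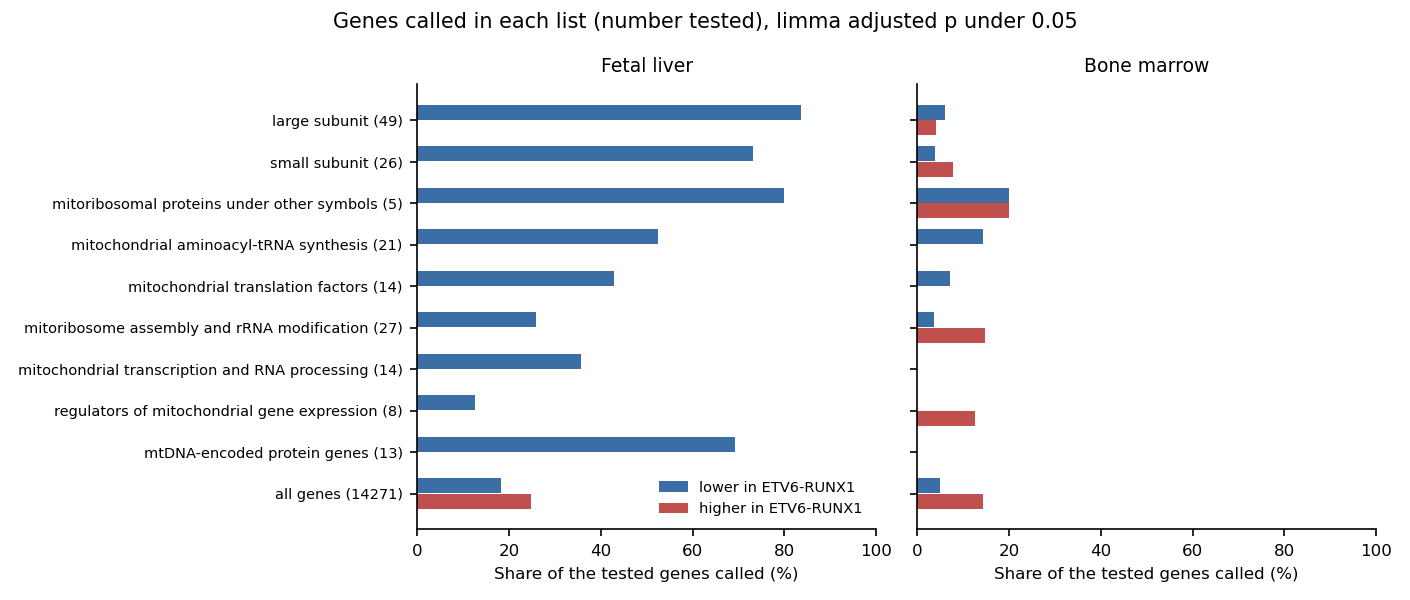
Share of the tested genes of each list (horizontal axis, percent, from 0) that limma called lower (blue) or higher (red) in ETV6-RUNX1 than in WT cells, in fetal liver (left) and bone marrow (right), with the number tested after each name. In fetal liver both subunits exceed the 18.3% of all genes called lower. No list there has a gene called higher except all genes, at 24.8%. In bone marrow the longest bars are 20%, 1 of 5 mitoribosomal proteins under other symbols on each side. Aminoacyl-tRNA synthesis has 14.3% called lower there (3 of 21), and all genes have 4.93% lower and 14.4% higher.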

How the data were processed

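RNA was measured in 12 libraries. The authors deposited CPM per gene; the submitters' processing notes name bcl2fastq, STAR 2.5.1a, Subread, featureCounts 1.4.6-p5, Salmon 0.8.2, edgeR, limma and GRCm38. Annotation, filters and strand in counting are not given in the sources used here. Of 40757 entries, 276 repeated an ID and were kept once. In each library 100% of CPM values were whole multiples of 1 read (tolerance 0.01), which gave depth.

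CPM values became log2(CPM + 1). The filter was 1 CPM or more in 3 or more libraries, followed by limma 3.58.1 (R 4.3.3; trend, 4 group coefficients, 8 residual degrees of freedom, two-sided), with p adjusted by Benjamini-Hochberg over 14271 genes and tested on simulated data. On recovered reads edgeR 4.0.16 called 6178 genes in fetal liver and 2739 in bone marrow, against 6151 and 2763 by limma. DESeq2 1.42.0, other scalings, filters, covariates, array weights, the replicate block and leaving out each library were also run. GENCODE M21 (GRCm38) gave exons for 77 members; BLAST 2.17.0 matched member transcripts to processed pseudogenes of at least 200 bases; RefSeq (GRCm38.p6) gave promoters.

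Named members were the 4 largest called falls and 4 largest called rises of each of the 5 comparisons, plus 11 chosen for their role and members failing the filter; of other lists, up to 3 called genes with the smallest fetal liver p and all 5 mitoribosomal proteins under other symbols. The members, lists and rules were chosen with earlier results of these data known. Floors of 3 reads cover counting error only.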

Additional observations from a re-analysis of the deposited data

Results flagged for a closer look

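Among the named members, 7 differed between the sources in their response to ETV6-RUNX1 by the limma interaction test (fetal liver difference minus bone marrow difference, log2 scale, adjusted p under 0.05 over all genes). They were Mrps12 (-1.18), Mrpl52 (-1.17), Mrpl12 (-1.12), Mrpl38 (-1.11), Mrps28 (-0.88), Mrps23 (-0.79) and Mrpl57 (-0.69). Each was lower in ETV6-RUNX1 than in WT fetal liver cells, and Mrpl38 was the one also called higher in bone marrow. None of the 7 was called with the pseudogene share as a covariate.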

How the results depend on the processing

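In fetal liver the 61 member calls stayed between 55 and 66, all lower, in 11 of the 12 settings other than single libraries left out, and became 40 with the processed pseudogene share as a covariate. Leaving out each library gave 46 to 63. The 8 bone marrow calls, 4 lower and 4 higher, became 5 with all genes with reads and 17 with median-of-ratios scaling (14 lower, 3 higher). EdgeR gave 18 (15 lower, 3 higher), DESeq2 20 (17 lower, 3 higher) and the pseudogene covariate 38 (36 lower, 2 higher). Only the 6 libraries compared gave 1, and leaving out a library gave 1 to 13. The 9 interaction calls became 5 with all genes, median-of-ratios scaling or edgeR, 0 with the pseudogene covariate (limma, 9 at an unadjusted p under 0.05, against 5 calls by edgeR and 8 by DESeq2 without it), 40 with array weights and 19 without the library of highest pseudogene share in each group, an alternative chosen after seeing the data. They ranged from 4 to 25 with a library left out. The 5 WT source calls became 3 with all genes, the replicate block or only 6 libraries, 10 with DESeq2, 37 with array weights and 17 without the highest pseudogene shares, and 0 to 20 with a library left out. The 11 source calls in ETV6-RUNX1 cells became 5 with median-of-ratios scaling, edgeR or DESeq2, 3 with the pseudogene covariate, 20 with array weights and 17 without the highest pseudogene shares, and 5 to 16 with a library left out. Array weights also raised the calls over all genes, to 13.7% lower and 11.8% higher for the interaction. For the WT source comparison they were 21.4% lower and 9.48% higher. For the ETV6-RUNX1 source comparison they were 24.4% lower and 12.0% higher, with 19 members lower and 1 higher. Without the highest pseudogene shares, 7.12% of all genes were lower and 6.59% higher for the interaction. The WT source comparison then had 10.6% lower and 4.25% higher. The causes were not tested. Correlations of same-numbered deviations ran from -0.44 to 0.22, which cannot show whether same-numbered samples were prepared together. The replicate block gave 55, 6, 7, 3 and 8 calls in these 5 comparisons. The sign of Mrps18c in fetal liver reversed to 0.22 with the covariate, 0.030 without WT replicate 3 and 0.033 without the highest pseudogene shares, and ranged from -0.26 to 0.030 with a library left out. Of 1145 values of named members under the alternatives, 935 kept their direction and side of the threshold, 197 lost a call, 10 gained one and 3 changed sign. Mrps24, Mrps26, Mrps30 and Mrps34 are below 10 CPM in some libraries.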
